A study of Mus musculus with 6 samples.

Results

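The subject here is a set of 45 genes of mitosis and chromosome segregation, whose transcripts were counted in RNA from the transition zone of the embryonic mouse lens. The members were taken by gene symbol from a list that runs from the mitotic cyclins to condensin and cytokinesis. The list was chosen with earlier results of these data known, so its share of positive values and its median describe it and test nothing. All 45 symbols were found among the 23420 genes of the count table, and all 45 passed the filter on low counts that left 12257 genes. Their raw counts per library lay between 43 and 5230.

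Mitosis is driven by Cdk1 bound to cyclins A and B, while Aurora and Polo-like kinases build the spindle, the spindle checkpoint holds anaphase until every kinetochore is attached, and the anaphase-promoting complex then frees separase to part the sister chromatids. Transcripts of this machinery are low in resting cells and peak in G2 and M phase, when the B-Myb and MuvB complex and FoxM1 act on promoters that often carry a CHR element (cell cycle genes homology region) near the start site together with CCAAT boxes. In the lens, dividing cells lie in the anterior epithelium. The transition zone is where these cells leave the cycle and turn into crystallin-filled fibre cells, and mitotic transcripts are lost as they do so.

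There were 3 mutant and 3 control libraries, all from E14.5 embryos of a mixed strain background. Mutant embryos carried Le-Cre with Etv4-/-, Etv5fl/fl and Etv1 fl/fl alleles, and control embryos are labelled with Le-Cre alone, so both groups expressed Cre. Le-Cre is driven by a Pax6 enhancer in surface ectoderm that forms the lens, so deletion of Etv1 and Etv5 is directed to derivatives of that ectoderm, while Etv4 is null in the whole embryo. The 3 proteins form the Pea3 subfamily of ETS factors, whose genes are induced by fibroblast growth factor (FGF) signalling, and the comparison addressed which transcripts of the transition zone depend on them. Whether every library stands for its own embryo is not in the labels, and the p-values therefore reflect only how much these libraries vary, which may be technical.

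Library totals lay between 13364742 and 17301168 counts. In CPM (counts scaled to a library of 1000000 with TMM factors), Etv1 lay between 21.6 and 29.0 in mutant and between 45.3 and 70.7 in control libraries. Etv5 lay between 82.8 and 116 CPM in mutant and between 168 and 245 in control libraries. Etv4, low throughout, lay between 3.71 and 4.92 CPM in mutant and between 2.12 and 3.21 in control libraries. Etv1 passed the test and Etv4 and Etv5 did not (edgeR adjusted p = 0.0319 for Etv1, 0.427 for Etv4 and 0.0503 for Etv5). The labels do not name the exons that the alleles remove, so counts over whole genes are a weak check of them, and Etv4 was not lower in the libraries labelled mutant, which are called mutant libraries here by their labels. Mutant library 1 held 711 counts of Xist and 2 of Ddx3y, whereas the other 5 libraries held between 521 and 890 counts of Ddx3y. That library therefore also differs in sex from the others, which touches the X-linked member Kif4.

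Mitosis genes were higher on average in mutant libraries, but no member passed the test. All 45 members had positive log2 fold changes (mutant over control), against 50.2% of all genes tested, and their median was 0.71, a 1.63-fold higher level, against a median of 0.00 over all genes. The values ran between 0.10 for the condensin gene Ncapd2 and 1.42 for the kinetochore gene Nuf2. In edgeR's quasi-likelihood test with Benjamini-Hochberg adjustment over all genes, 0 of 45 members were called in either direction, where 2.22% of all genes were called (1.14% higher and 1.08% lower), and the adjusted p of the members lay between 0.176 and 0.944. At an unadjusted p under 0.05, 5 members were higher, where 7.92% of all genes were, namely Nuf2, Smc2, Ccnb2, Incenp and Mad2l1, and 0 were lower, where 8.27% of all genes were. DESeq2 called 1 member higher (Nuf2), where it called 3.27% of all genes higher and 6.7% in either direction. Limma voom with quality weights called 2 members (Nuf2 and Smc2), where it called 3.2% of all genes higher and 6.59% in either direction, and at an unadjusted p under 0.05 it had 27 members higher, where 11.5% of all genes were. The number of members below an unadjusted threshold thus differed between tools.

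Single libraries showed one order for nearly all members. Control library 1 had the lowest value of all 6 libraries for 45 of 45 members, and mutant library 1 had the highest for 37. No share of all genes is given for these counts. The S phase genes compared below also had their lowest median log2 CPM in control library 1 (3.95), so the low values there were not particular to the members. The S phase median was highest in mutant library 3. Mutant library 2 lay within the range of the control libraries for 42 members and below control library 3 for 41. The groups were apart for 3 members, Ccnb2, Nuf2 and Smc2, each with all mutant values above all control values. That is 6.67% of the members, below the 11.4% of all genes tested with all mutant values above all control values. Without mutant library 2 there were 29 such members (21.3% of all genes), and without control library 3 there were 16 (16.2% of all genes). At an unadjusted p under 0.05, edgeR had 18 members higher without mutant library 2 (9.56% of all genes) and 20 without control library 3 (7.13% of all genes).

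**Figure D1:**
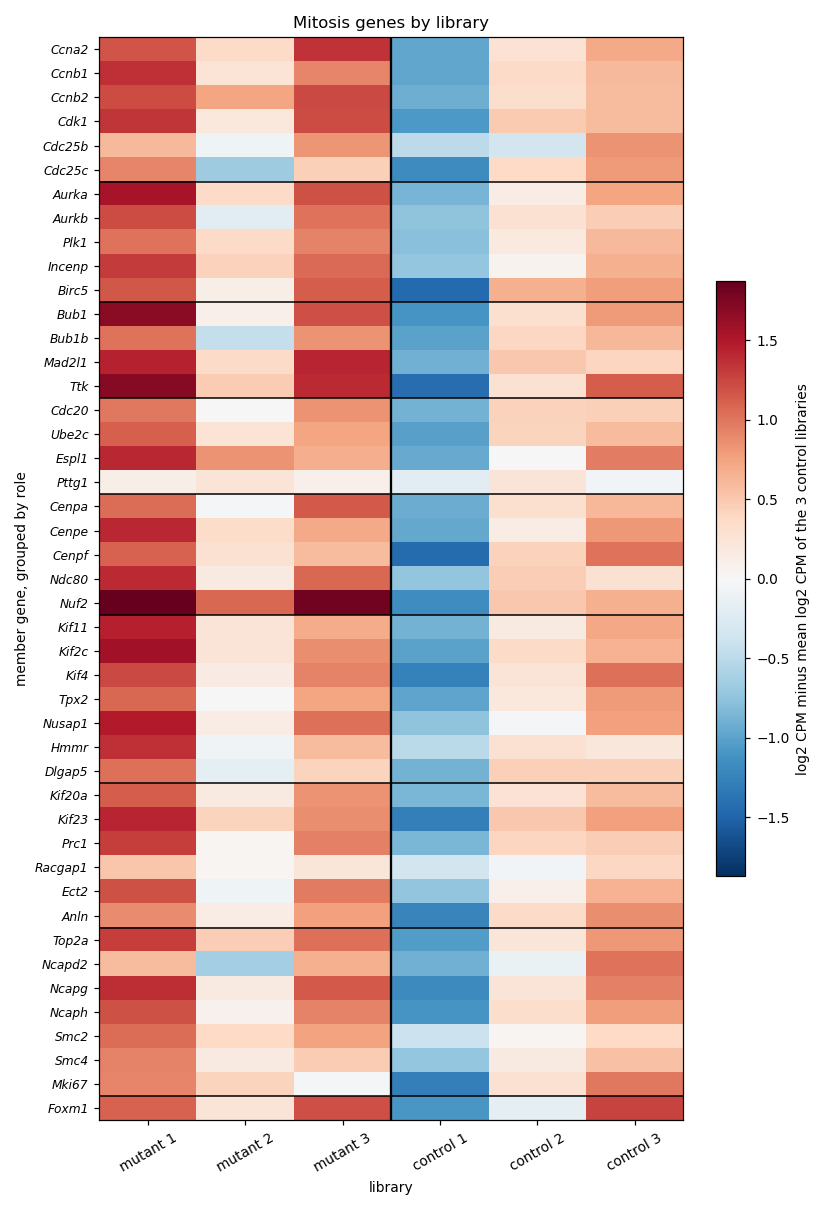
Colour gives log2 CPM of each member in each library minus the mean log2 CPM of the 3 control libraries; rows are the 45 members, separated by lines into the role groups used in the text, and columns are the 3 mutant and the 3 control libraries. Mutant libraries 1 and 3 are the reddest columns, control library 1 is the lowest for 45 of 45 members, mutant library 2 lies within the control range for 42 members, and the row of Pttg1 is nearly without colour.

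Among the cyclins, Cdk1 and its activating phosphatases, all 6 members were on average higher in mutant libraries and none was called. Values are given in the order of libraries 1, 2 and 3 within each group. Ccnb1, which encodes cyclin B1, had 265, 123 and 195 CPM in mutant libraries, against 52.7, 132 and 158 CPM in control libraries. These groups overlapped, since mutant library 2 lay below control libraries 2 and 3, and the log2 fold change was 0.76 ± 0.42 (SE, adjusted p = 0.426 by edgeR). Ccnb2, the gene of cyclin B2, had 80.9, 58.3 and 81.7 CPM in mutant libraries, against 18.4, 43.8 and 52.3 CPM in control libraries. Here every mutant library stood above every control library, with a log2 fold change of 0.95 ± 0.35 (SE, adjusted p = 0.249 by edgeR). The cyclin A2 gene Ccna2 and Cdk1 itself had log2 fold changes of 0.86 and 0.83. The phosphatase genes that activate Cdk1 stood lower, Cdc25b with a log2 fold change of 0.37. Cdc25c had 25.7, 8.57 and 18.6 CPM in mutant libraries, against 6.05, 17.7 and 23.6 CPM in control libraries. Its mutant library 2 lay between control libraries 1 and 2, and its log2 fold change was 0.16 ± 0.54 (SE, adjusted p = 0.917 by edgeR).

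The mitotic kinases and the chromosomal passenger complex, in which survivin and the scaffold INCENP hold Aurora B on centromeres, gave 5 positive values and no call. Incenp had 45.95, 24.9 and 38.5 CPM in mutant libraries, against 11.2, 19.3 and 29.4 CPM in control libraries. Mutant libraries 1 and 3 were above all controls while mutant library 2 lay between control libraries 2 and 3 (log2 fold change 0.87 ± 0.36 SE, adjusted p = 0.295 by edgeR). Plk1, the gene of Polo-like kinase 1, had 88.2, 55.6 and 82.6 CPM in mutant libraries, against 25.2, 49.3 and 65.9 CPM in control libraries. The pattern was that of Incenp, with a log2 fold change of 0.69 ± 0.34 (SE, adjusted p = 0.368 by edgeR). Birc5, which encodes survivin, had 71.7, 34.6 and 69.7 CPM in mutant libraries, against 11.7, 50.9 and 54.9 CPM in control libraries. Control library 1 was far below the other 5 libraries, and the log2 fold change was 0.58 ± 0.54 (SE, adjusted p = 0.641 by edgeR). Aurka, the spindle pole kinase gene, and Aurkb had log2 fold changes of 0.96 and 0.71.

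Spindle checkpoint genes had the highest role median (log2 fold change 0.94) among the groups with more than 1 member, also without a call. Mad2l1, which encodes the Mad2 protein that inhibits Cdc20, had 105, 49.8 and 103 CPM in mutant libraries, against 20.8, 54.7 and 51.1 CPM in control libraries. Mutant libraries 1 and 3 were nearly equal and far above the rest, while mutant library 2 lay just below control libraries 2 and 3 (log2 fold change 1.03 ± 0.41 SE, adjusted p = 0.277 by edgeR). Bub1b, the gene of the checkpoint protein BubR1, had 90.6, 32.9 and 80.1 CPM in mutant libraries, against 22.3, 58.4 and 68.6 CPM in control libraries. Its mutant library 2 was below control libraries 2 and 3, and the log2 fold change was 0.45 ± 0.48 (SE, adjusted p = 0.695 by edgeR). The checkpoint kinase genes Bub1 and Ttk both had a log2 fold change of 0.94.

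The genes that carry cells out of metaphase included the flattest pattern of the set. Ube2c, which encodes the ubiquitin-conjugating enzyme of the anaphase-promoting complex, had 201, 111 and 155 CPM in mutant libraries, against 45.7, 124 and 139.5 CPM in control libraries. The groups overlapped and the log2 fold change was 0.59 ± 0.40 (SE, adjusted p = 0.525 by edgeR). Espl1, the gene of separase, had 17.6, 11.9 and 10.6 CPM in mutant libraries, against 3.44, 6.55 and 12.8 CPM in control libraries. Mutant library 1 was the highest and control library 1 the lowest, and the log2 fold change was 0.81 ± 0.45 (SE, adjusted p = 0.430 by edgeR). Pttg1, which encodes securin, the inhibitor of separase, had 21.9, 24.0 and 21.7 CPM in mutant libraries, against 17.8, 24.1 and 19.5 CPM in control libraries. All 6 libraries were close to each other and the groups overlapped (log2 fold change 0.14 ± 0.19 SE, adjusted p = 0.768 by edgeR). The SD of Pttg1 log2 CPM was 0.08 among mutant and 0.22 among control libraries, the lowest of the members in both groups. Cdc20, the activator of the complex, had a log2 fold change of 0.55.

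At centromeres and kinetochores, Nuf2 stood out. Nuf2 is a subunit of the Ndc80 complex, which binds microtubules to the kinetochore, and had 41.6, 24.1 and 39.9 CPM in mutant libraries, against 5.08, 16.1 and 18.1 CPM in control libraries. Every mutant library was above every control library, and the log2 fold change of 1.42 ± 0.45 (SE, adjusted p = 0.176 by edgeR) was the largest of the members. Its partner Ndc80 had a log2 fold change of 0.88. Cenpa, which encodes the centromeric histone H3 variant, had 79.1, 38.1 and 85.0 CPM in mutant libraries, against 20.3, 47.2 and 59.3 CPM in control libraries. The groups overlapped, with a log2 fold change of 0.67 ± 0.43 (SE, adjusted p = 0.489 by edgeR). Cenpf, the gene of a large kinetochore-associated protein, had 48.6, 27.7 and 34.1 CPM in mutant libraries, against 8.36, 30.4 and 45.7 CPM in control libraries. Control library 3 was above mutant libraries 2 and 3, and the log2 fold change was 0.38 ± 0.53 (SE, adjusted p = 0.775 by edgeR). Cenpe, the gene of a kinetochore kinesin, had a log2 fold change of 0.72.

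Kinesins and spindle proteins gave 7 log2 fold changes, all positive and none called, between 0.39 and 0.86 and a median of 0.71. Nusap1, which encodes a microtubule bundling protein, had 70.8, 27.7 and 51.7 CPM in mutant libraries, against 15.01, 24.9 and 43.1 CPM in control libraries. Mutant library 2 lay between control libraries 2 and 3 (log2 fold change 0.86 ± 0.44 SE, adjusted p = 0.396 by edgeR). Tpx2, whose product activates Aurora A on the spindle, had 75.8, 36.2 and 60.1 CPM in mutant libraries, against 18.1, 41.2 and 62.3 CPM in control libraries. Control library 3 was above mutant library 3, and the log2 fold change was 0.50 ± 0.44 (SE, adjusted p = 0.621 by edgeR). Dlgap5, the gene of the spindle protein HURP, had 31.2, 13.7 and 20.4 CPM in mutant libraries, against 8.29, 20.8 and 20.8 CPM in control libraries. Its mutant libraries 2 and 3 were both below control libraries 2 and 3 (log2 fold change 0.39 ± 0.41 SE, adjusted p = 0.695 by edgeR). The kinesin genes Kif11, Kif2c and Kif4 had log2 fold changes of 0.74, 0.84 and 0.55, and the hyaluronan receptor gene Hmmr, whose product also binds the spindle, had 0.71.

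For the spindle midzone and cytokinesis, 6 members had a median log2 fold change of 0.66. Prc1, which encodes the bundler of midzone microtubules, had 104, 43.3 and 81.4 CPM in mutant libraries, against 23.4, 55.7 and 58.0 CPM in control libraries. Mutant libraries 1 and 3 were above all controls, mutant library 2 below control libraries 2 and 3 (log2 fold change 0.74 ± 0.41 SE, adjusted p = 0.429 by edgeR). Racgap1, the gene of a centralspindlin subunit, had 124, 88.2 and 101 CPM in mutant libraries, against 68.3, 83.7 and 113 CPM in control libraries. The range over libraries was narrow beside that of Prc1, control library 3 lay above mutant libraries 2 and 3, and the log2 fold change was 0.25 ± 0.21 (SE, adjusted p = 0.599 by edgeR). The centralspindlin kinesin gene Kif23 had a log2 fold change of 0.72, the midzone kinesin gene Kif20a 0.65, the cytokinesis gene Ect2 0.68 and the contractile ring gene Anln 0.39.

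Genes of chromosome structure, all 7 positive and none called, had log2 fold changes between 0.10 and 0.78. Smc2, an ATPase subunit shared by both condensins, had 85.1, 53.4 and 69.3 CPM in mutant libraries, against 31.1, 42.4 and 53.3 CPM in control libraries. Mutant library 2 was above control library 3 by a narrow margin, so the groups did not overlap, and the log2 fold change was 0.71 ± 0.23 (SE, adjusted p = 0.184 by edgeR). Top2a, the gene of topoisomerase II alpha, had 156, 87.6 and 129.9 CPM in mutant libraries, against 30.8, 74.9 and 112 CPM in control libraries. Mutant library 2 lay between control libraries 2 and 3 (log2 fold change 0.78 ± 0.43 SE, adjusted p = 0.430 by edgeR). Ncapd2, a condensin I subunit gene, had 49.4, 21.1 and 52.0 CPM in mutant libraries, against 17.7, 30.2 and 66.5 CPM in control libraries. Its highest library was a control, and the log2 fold change was 0.10 ± 0.51 (SE, adjusted p = 0.944 by edgeR). The condensin genes Ncapg, Ncaph and Smc4 had log2 fold changes of 0.74, 0.61 and 0.47, and the proliferation marker gene Mki67 had 0.22. Foxm1, the forkhead factor gene that drives many of these genes, had 32.1, 17.7 and 34.4 CPM in mutant libraries, against 7.02, 13.3 and 35.9 CPM in control libraries. Control library 3 was above all mutant libraries, and the log2 fold change was 0.58 ± 0.56 (SE, adjusted p = 0.657 by edgeR).

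**Figure D2:**
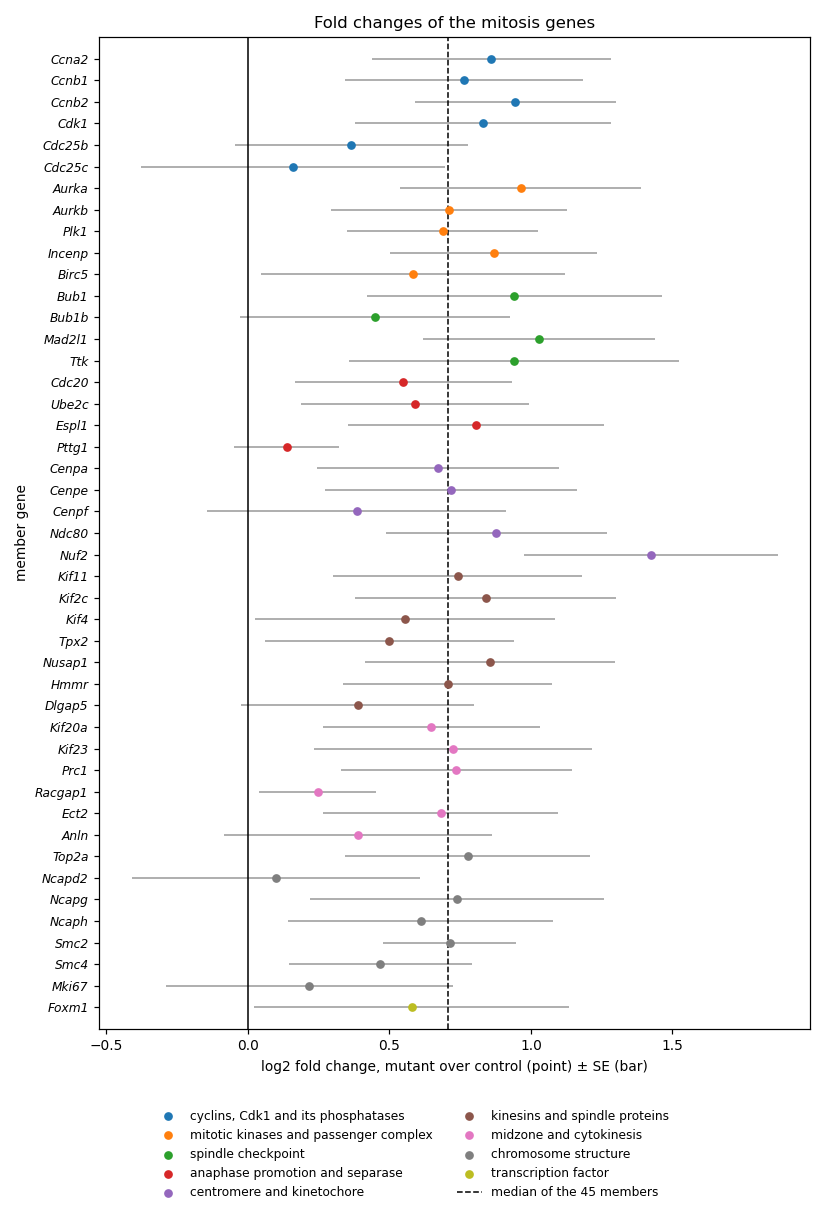
Points give the log2 fold change of each member, mutant over control, from edgeR, and bars its standard error; colours mark role groups and the dashed line the median of the 45 members, 0.71. All points lie right of 0, between 0.10 for Ncapd2 and 1.42 for Nuf2.

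Between genes, levels were compared per length of exon (CPM per kb, with the union of exons in the GENCODE annotation of GRCm38, since the authors' gene models are not stated). Ccnb1 had the highest level, with 78.1 ± 28.6 in mutant and 45.9 ± 22.1 in control libraries (SD, n = 3 each). Cdc20 had 66.8 ± 21.7 in mutant and 45.6 ± 19.7 in control libraries, and Ube2c 59.7 ± 17.3 in mutant and 39.6 ± 19.3 in control libraries (SD, n = 3 each). These neighbours in the order did not differ beyond their spread. At the other end of the order, Espl1 had 1.99 ± 0.555 in mutant and 1.13 ± 0.714 in control libraries, Kif4 3.03 ± 1.06 in mutant and 2.06 ± 1.38 in control libraries and Cdc25b 2.98 ± 0.892 in mutant and 2.31 ± 1.27 in control libraries CPM per kb (SD, n = 3 each), and the values of Kif4 and Cdc25b again lay within each other's spread. The same genes held the first 3 ranks in both groups. GENCODE lists processed pseudogenes of Ccnb1, Ccnb2 and Kif4, and whether the authors' counter split reads with such copies is not known.

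Sequences near the start sites are shown as a description of the members. Their part in the order that the members shared over libraries was not tested. RefSeq promoter windows of GRCm38.p6, each 250 bases before to 50 bases after an annotated start, were at hand for 36 of the 45 members (38 windows). The CHR element was searched as TTTGAA or TTCGAA, the CCAAT box as CCAAT, the E2F site as TTTGGCGC or TTTCCCGC and the ETS site as CCGGAAGT, each on both strands. CHR letters were in 78.9% of member windows, against 13.4% of the 11820 windows of all genes tested and 19.2% of all 32851 windows. CCAAT was in 76.3% of member windows, against 37.8% of the windows of genes tested and 37.4% of all windows. Both motifs were in 71.1% of member windows, against 5.57% of the windows of genes tested and 7.52% of all windows. The ETS site, the letters bound by factors of the family that includes Etv1, Etv4 and Etv5, was in 10.5% of member windows (4 windows, those of Aurka, Cenpf, Ndc80 and Ncapg), against 7.99% of the windows of genes tested and 3.89% of all windows. E2F letters were in 2 windows, 5.26%, against 2.91% of the windows of genes tested and 1.56% of all windows. In 1 place 2 matches overlapped. A match describes letters and does not show binding.

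The CHR matches lay close to the start, with a median centre 12.5 bases before it and 28 of 41 within 50 bases. CCAAT matches lay further upstream, with a median centre 76 bases before the start. The 6 windows below are those of the highest-expressed described members that hold both motifs, shown 5′ to 3′ from 200 bases before to 30 bases after the start, with CHR and CCAAT letters in capitals, also where they read on the other strand. The CHR element of Plk1 and the second of Bub1b lie further downstream than the stretch shown.
Ube2c (chr2:164769729-164769958, plus strand): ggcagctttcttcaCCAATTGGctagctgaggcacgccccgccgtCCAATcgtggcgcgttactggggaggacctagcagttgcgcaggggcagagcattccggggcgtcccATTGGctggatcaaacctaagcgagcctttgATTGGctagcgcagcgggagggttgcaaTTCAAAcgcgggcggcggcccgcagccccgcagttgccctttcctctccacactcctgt
Top2a (chr11:99024160-99024389, minus strand): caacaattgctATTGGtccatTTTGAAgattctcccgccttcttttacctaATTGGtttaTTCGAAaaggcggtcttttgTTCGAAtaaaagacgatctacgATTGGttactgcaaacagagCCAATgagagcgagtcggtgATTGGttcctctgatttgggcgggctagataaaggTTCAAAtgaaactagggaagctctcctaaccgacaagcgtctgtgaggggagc
Racgap1 (chr15:99651627-99651856, minus strand): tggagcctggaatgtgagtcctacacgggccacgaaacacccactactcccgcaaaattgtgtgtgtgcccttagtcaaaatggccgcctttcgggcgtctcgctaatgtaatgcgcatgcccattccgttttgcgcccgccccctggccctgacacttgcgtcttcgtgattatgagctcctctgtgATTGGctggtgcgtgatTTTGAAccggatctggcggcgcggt
Plk1 (chr7:122159235-122159464, plus strand): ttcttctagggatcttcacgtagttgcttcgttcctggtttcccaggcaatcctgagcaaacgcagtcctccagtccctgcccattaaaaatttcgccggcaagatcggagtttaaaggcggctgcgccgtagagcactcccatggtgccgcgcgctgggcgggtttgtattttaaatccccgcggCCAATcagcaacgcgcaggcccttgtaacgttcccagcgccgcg
Prc1 (chr7:80294251-80294480, plus strand): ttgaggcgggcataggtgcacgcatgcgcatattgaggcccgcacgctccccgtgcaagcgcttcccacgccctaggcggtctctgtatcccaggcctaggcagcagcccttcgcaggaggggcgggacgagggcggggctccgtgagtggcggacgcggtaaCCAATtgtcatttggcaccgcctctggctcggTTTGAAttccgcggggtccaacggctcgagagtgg
Bub1b (chr2:118598011-118598240, plus strand): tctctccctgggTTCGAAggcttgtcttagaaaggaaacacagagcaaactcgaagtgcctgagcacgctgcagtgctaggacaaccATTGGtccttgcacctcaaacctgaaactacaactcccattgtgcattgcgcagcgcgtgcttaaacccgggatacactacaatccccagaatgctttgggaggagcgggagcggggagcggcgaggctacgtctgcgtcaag
Ube2c, Racgap1 and Prc1 each show a CCAAT box followed by a CHR element near the start. Top2a shows several CCAAT boxes and CHR elements interleaved over the whole stretch.

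**Figure D3:**
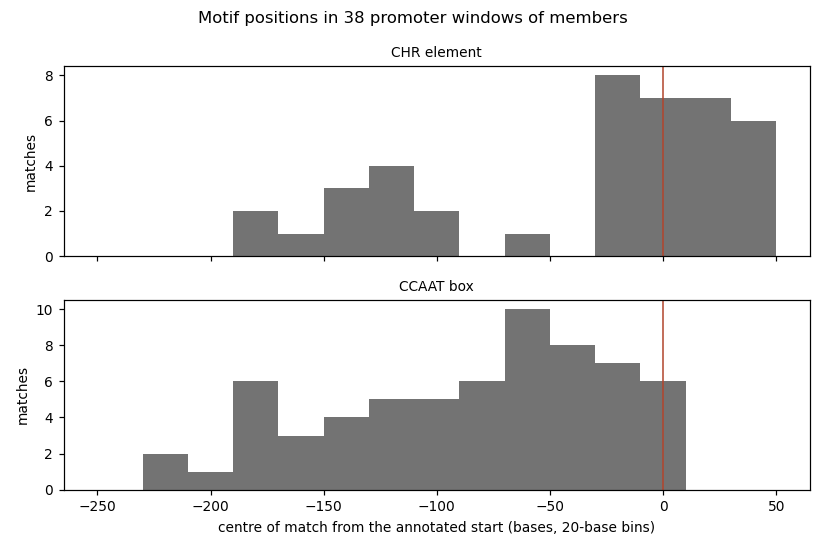
Histograms of the centres of CHR matches (top) and CCAAT matches (bottom) in 38 promoter windows of members, by distance from the annotated start in bases; bars count matches in bins of 20 bases and the red line marks the start. CHR matches gather around the start (28 of 41 within 50 bases), and CCAAT matches mostly lie before it, with a median of -76.

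Fold changes of members with and without these letters were compared with no test. The 28 members with a CHR match had a median log2 fold change of 0.71, and the 8 without one a median of 0.74. Both the most shifted member, Nuf2, and the nearly flat Pttg1 had none of the 4 motifs in their windows. The 4 members with an ETS site had a median of 0.81, and the 32 without one a median of 0.71. For CCAAT the median was 0.71 in the 27 members with a match and 0.84 in the 9 without. For E2F it was 0.42 in the 2 members with a match and 0.71 in the 34 without.

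Member levels ran opposite to the crystallin content of the libraries. Crystallin genes (16 genes) took 21.7%, 32.2% and 19.5% of counts in mutant libraries 1, 2 and 3, against 37.6%, 30.2% and 21.8% in control libraries. The median log2 CPM of the 45 members was 6.04, 4.80 and 5.70 in mutant libraries, against 3.92, 4.97 and 5.49 in control libraries. Ordered by crystallin share, member medians ran in the opposite order over the 6 libraries except that mutant libraries 1 and 3 changed places. Members took 0.391%, 0.158% and 0.319% of counts in mutant libraries, against 0.0663%, 0.179% and 0.265% in control libraries. In bulk tissue, fewer cells of a type and less RNA per cell cannot be told apart. With the crystallin share as a covariate, the median log2 fold change of the members was 0.28 and 41 of 45 were positive. In that fit 1 member, Nuf2, was called higher (2.99% of all genes). Its log2 fold change was 1.05, with an edgeR adjusted p of 0.0342. The 16 crystallin genes themselves had negative log2 fold changes, between -2.74 and -0.01, of which Crybb2 was called lower (adjusted p = 0.0114 by edgeR). The covariate may thus differ with genotype, which was not tested.

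**Figure D4:**
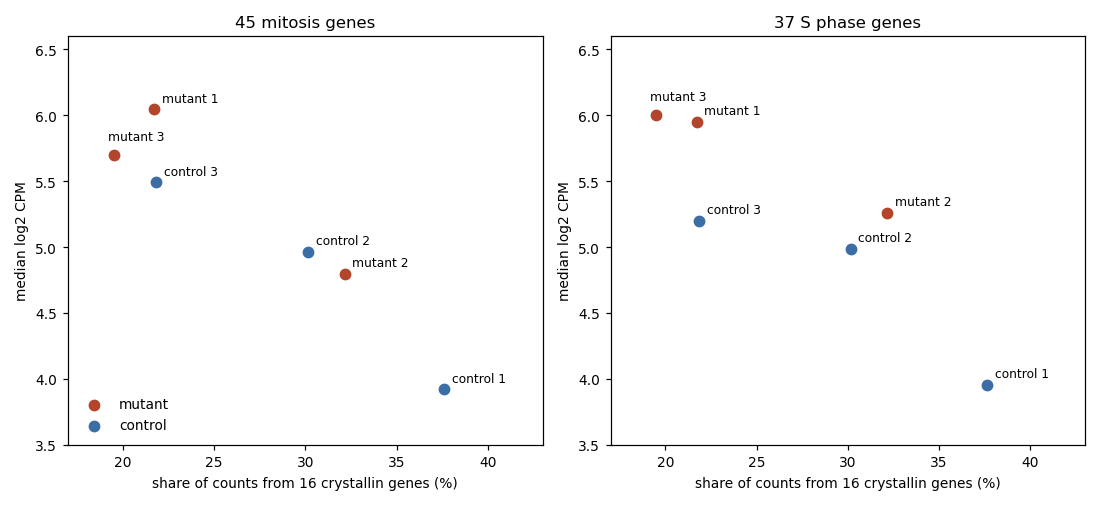
Each point is a library, red for mutant and blue for control; the x axis gives the share of counts from 16 crystallin genes in percent and the y axis the median log2 CPM of the 45 mitosis genes (left) and of 37 S phase genes (right). Levels are lower in libraries with more crystallin, and among libraries of like share the mutant points stand higher for S phase genes. For mitosis genes, mutant library 1 (6.04) stands above control library 3 (5.49), while mutant library 2 (4.80) stands below control library 2 (4.97).

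Lens epithelium markers (8 listed, 7 tested, Lefty2 at 0 in every library) summed to 724, 389 and 726 CPM in mutant libraries, against 298, 726 and 998 CPM in control libraries. None of the 7 passed the test (edgeR adjusted p between 0.543 and 0.939). The summed CPM of the members divided by that sum was 4.74, 4.47 and 3.94 in mutant libraries, against 2.77, 2.55 and 2.38 in control libraries. The groups did not overlap in this ratio, which was computed after the values by library were seen and was not tested. Marker by marker, 4 of 7 ratios had all mutant libraries above all control libraries (those to Foxe3, Npnt, Tfap2a and Sulf1) and 3 did not. Sulf1 was at 0.082 CPM in mutant library 2, and Tfap2a was at or below 3.54 CPM throughout, so these ratios rest on low counts. Log2 fold changes of the 4 markers were -0.66, -0.12, -0.10 and -1.62. Those of the other 3 were 0.15 for Pax6, -0.31 for Cdh1 and 0.48 for Pdgfra. Against Pdgfra, a growth factor receptor gene of the epithelium, the ratio was 22.5, 19.3 and 17.5 in mutant libraries, against 19.4, 19.3 and 15.6 in control libraries. Against Foxe3, an epithelial forkhead factor gene, it was 22.6, 43.7 and 18.4 in mutant libraries, against 16.1, 8.66 and 8.41 in control libraries. The ratio thus depended on the marker, and the part of crystallin share and epithelial content in the member values was not tested.

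Markers of other cell types had mostly low counts. Of the retina markers, the transcription factor genes Rax, Lhx2, Atoh7, Pou4f2 and Crx were all at or below 0.659 CPM. Sfrp2, a secreted Wnt modulator gene of that list, lay between 16.3 and 80.3 CPM in mutant and between 45.9 and 274 CPM in control libraries, and Hes5 between 6.67 and 12.0 CPM in mutant and between 3.29 and 17.002 CPM in control libraries. The 8 macrophage markers summed to between 3.79 and 34.0 CPM in mutant and between 1.72 and 10.1 CPM in control libraries. The 8 red blood cell markers found summed to between 76.5 and 312 CPM in mutant and between 55.9 and 182 CPM in control libraries. Of these, 4 globin genes (Hba-a1, Hba-a2, Hbb-b1 and Hbb-b2) were at 0 throughout. The globin gene Hbb-y lay between 67.9 and 262 CPM in mutant and between 51.3 and 151 CPM in control libraries. Whether the zeros come from the counting was not tested, so the sums may understate red blood cell RNA. The 6 vessel markers summed to between 23.2 and 55.7 CPM in mutant and between 34.2 and 44.5 CPM in control libraries, with Tek between 22.7 and 53.1 CPM in mutant and between 27.9 and 41.7 CPM in control libraries. The other 5 vessel markers (Pecam1, Cdh5, Kdr, Tie1 and Cldn5) were at or below 2.84 CPM, and each was highest in control library 1, the library with the lowest value of every member. Mesenchyme (8 markers) and surface ectoderm (6 markers) reached at most 9.74 and 9.80 CPM in mutant and 18.1 and 4.15 CPM in control libraries. Macrophage sums were highest in mutant libraries 1 and 3, the libraries with the highest member levels. The part of these markers in the result was not tested.

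Genes of DNA replication and S phase, the nearest neighbours of the members in the cycle, were compared library by library. Of 37 S phase genes, 1 was called higher by edgeR, where 1.14% of all genes were. This was Mcm2, a subunit gene of the replicative helicase, which had 384, 345 and 369.8 CPM in mutant libraries, against 129, 186 and 196 CPM in control libraries (log2 fold change 1.10 ± 0.17 SE, adjusted p = 0.0155 by edgeR). The median log2 fold change of the S phase genes was 1.04, against 0.71 for the mitosis genes, and 14 of 37, or 37.8%, had all mutant values above all control values, against 3 of 45 mitosis genes and 11.4% of all genes. Median log2 CPM of mitosis genes minus that of S phase genes was 0.09, -0.46 and -0.30 in mutant libraries, against -0.04, -0.02 and 0.29 in control libraries. Mutant library 1 lay within the control range, so the groups overlapped in this difference. Mcm2 missed the threshold in fits without control library 2 (log2 fold change 1.17), mutant library 1 (1.07) or mutant library 3 (1.10).

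Within the set, members moved so nearly together that most of their spread was shared. The median SD of a member's log2 CPM over the 6 libraries was 0.79, and 0.23 after the median of the 45 members in the library was subtracted. Among replicates, the median SD of the members was 0.55 in mutant and 0.87 in control libraries, against 0.27 and 0.25 for all genes tested in the same groups. For the 37 S phase genes it was 0.58 in mutant and 0.78 in control libraries. A spread above that of all genes was thus not particular to the members. Of 45 members, 43 exceeded the median of all genes in mutant and 44 in control libraries.

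Values set against the members' median are given for a few genes (chosen after their values were seen, with no test). Nuf2 relative to the median, on the log2 scale, stood at -0.66, -0.20 and -0.38 in mutant libraries, against -1.54, -0.95 and -1.31 in control libraries. The groups did not overlap, with every mutant value nearer to the median than every control value. Ttk stood at -1.23, -1.20 and -1.18 in mutant libraries, against -2.18, -1.56 and -1.24 in control libraries, the mutant libraries just above the highest control. Aurka stood at 0.59, 0.67 and 0.59 in mutant libraries, against 0.31, 0.27 and 0.34 in control libraries, again apart. In the other direction, Cdc25c stood at -1.35, -1.68 and -1.47 in mutant libraries, against -1.29, -0.81 and -0.92 in control libraries, with all mutant libraries below all controls. For Pttg1, whose CPM was nearly level over libraries, the relative value was -1.58, -0.21 and -1.25 in mutant libraries, against 0.24, -0.37 and -1.20 in control libraries, and the groups overlapped. Relative values did not overlap between groups for 4 of 45 members (Nuf2, Ttk, Aurka and Cdc25c). Other genes were not put through this subtraction, so that count has no background share. In plain CPM, 3 of 45 members did not overlap, against 22.7% of all genes in either direction.

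**Figure D5:**
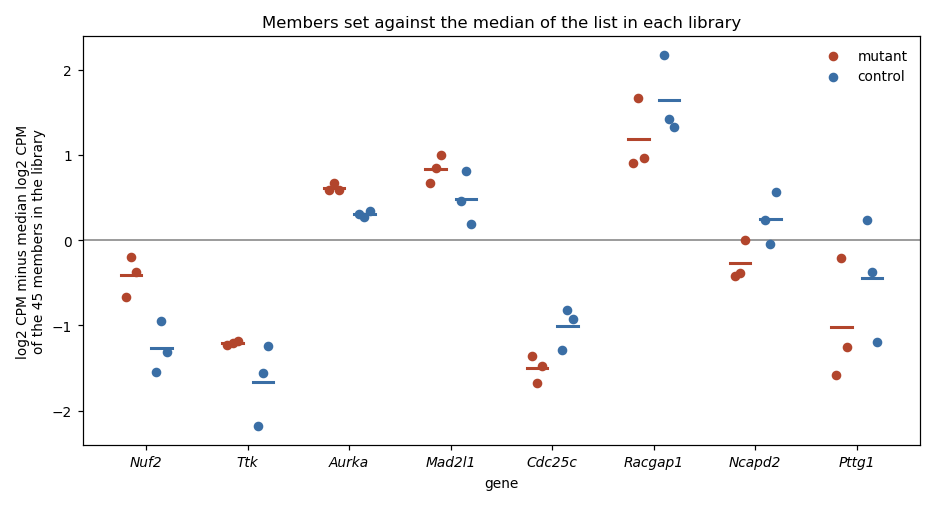
Points give log2 CPM of a gene minus the median log2 CPM of the 45 members in the same library, for 8 members chosen for their departures, with mutant libraries in red and control libraries in blue and short lines at the group means. Nuf2, Ttk and Aurka have all mutant points above all control points, Cdc25c has all of them below, and Mad2l1, Racgap1, Ncapd2 and Pttg1 overlap.

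A wider list of 95 further mitosis genes held 1 called gene. Of the 95, 84 were positive in log2 fold change and the median was 0.48. In edgeR 1 gene of this list was called higher and 0 lower, where 1.14% and 1.08% of all genes were. At an unadjusted p under 0.05 there were 10 higher and 1 lower, where 7.92% and 8.27% of all genes were. DESeq2 called 4 genes, all higher (Zwint, Fbxo5, Cenph and Cenpk), where it called 6.7% of all genes. Limma voom called 3 higher (Zwint, Fbxo5 and Stmn1) and 1 lower (Spag5), where it called 6.59% of all genes. Zwint, which encodes a kinetochore protein that binds the Knl1 complex, rose, with 565, 525 and 599 CPM in mutant libraries, against 255, 238 and 195 CPM in control libraries and a log2 fold change of 1.30 ± 0.15 (SE, adjusted p = 0.00347 by edgeR). Unlike the members, its control library 1 was the highest of the controls and its mutant library 2 was far above every control. Cenph, a subunit gene of the inner kinetochore, had 17.5, 7.58 and 14.54 CPM in mutant libraries, against 3.58, 6.98 and 6.70 CPM in control libraries (log2 fold change 1.20 ± 0.38 SE, adjusted p = 0.169 by edgeR). Stmn1, which encodes the microtubule destabilizer stathmin, had 128, 77.0 and 140.5 CPM in mutant libraries, against 44.4, 64.6 and 83.0 CPM in control libraries (log2 fold change 0.85 ± 0.29 SE, adjusted p = 0.198 by edgeR). Zwint kept its call in every alternative fit, with a log2 fold change between 1.19 and 1.38 over the fits that left out a library.

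Some genes of the wider list pointed the other way, with no call by edgeR or DESeq2. Spag5, the gene of the spindle and kinetochore protein astrin, had 64.5, 114 and 38.8 CPM in mutant libraries, against 356, 170.2 and 131 CPM in control libraries. Control library 1 was the highest and mutant library 3 the lowest, the same extremes as for the crystallin share (log2 fold change -1.60 ± 0.48 SE, adjusted p = 0.159 by edgeR). The groups did not overlap, and limma voom called Spag5 lower, with an adjusted p of 0.0269. Anapc1, a scaffold subunit gene of the anaphase-promoting complex, had 99.7, 99.9 and 92.8 CPM in mutant libraries, against 130.0, 100.1 and 131 CPM in control libraries. All its mutant values were below all its control values, the nearest by a narrow margin (log2 fold change -0.30 ± 0.14 SE, adjusted p = 0.335 by edgeR). Ckap5, a microtubule polymerase gene, had 158, 145 and 119 CPM in mutant libraries, against 155, 171 and 184 CPM in control libraries. Its groups overlapped (log2 fold change -0.27 ± 0.15 SE, adjusted p = 0.402 by edgeR). By class, the median log2 fold change was 0.75 for 13 genes of cyclin and Cdk1 control, 0.64 for 30 of kinetochore and centromere, 0.48 for 24 of spindle and cytokinesis, 0.15 for 14 of the anaphase-promoting complex and 0.13 for 14 of condensin II and cohesin.

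In the authors' deposited table, 1 of 45 members passed an adjusted p of 0.05, again Nuf2, with a log2 fold change of 1.34 ± 0.39 (SE) and an adjusted p of 0.0137. In the authors' deposited table, 2.97% of genes with an adjusted p passed with a positive value. All 45 members were positive in the authors' deposited table, with log2 fold changes between 0.10 and 1.34 with a median of 0.67.

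The size of the average shift changed in both directions with the library left out. The median log2 fold change of the members was 0.38 without control library 1 and 0.43 without mutant library 1, and 40 and 42 members were then positive. It was 0.62 without mutant library 3 and 0.74 without control library 2. Without mutant library 2 it was 0.92, and without control library 3 it was 1.01. No member was called by edgeR in any of the 6 fits that left out a library.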

How the data were processed

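RNA was amplified with a SMART-seq v4 ultra-low input kit and tagmented with Nextera XT, per the labels' protocols. This chemistry has no molecular identifiers and does not mark strand, so overlapping genes may share counts. In the submitters' processing notes the tools bcl2fastq (1.8.4), TopHat, Cufflinks and DESeq and the build mm9 appear without roles. How reads were counted, on which annotation and with what strand setting is not stated. Raw counts per gene symbol were deposited by the authors, and the sample files and the series table held the same values (0 differing). A second deposited table holds the authors' comparison: a mean normalized signal, log2 fold changes with errors, p-values before and after adjustment, and a score of the test.

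The counts went into edgeR 4.0.16 (R 4.3.3) with filterByExpr (minimum count 10, total 15), TMM scaling and the robust quasi-likelihood F test between groups. P-values were adjusted over 12257 genes by Benjamini-Hochberg with a threshold of 0.05, and SEs derive from the F statistic. Medians by library use log2 CPM with a prior count of 2. DESeq2 1.42.0 and limma 3.58.1 voom served as other tests, and scalings, filters, a replicate block, a crystallin covariate and fits without each library as other settings. In the shallowest library 3 counts, the limit that a count of 0 allows, equal 0.224 CPM without the TMM factor. This limit covers counting error only. Replicates differed by more than sampling noise (lowest chi-square per degree of freedom 28.1). Promoter windows come from RefSeq on GRCm38.p6, not the authors' mm9. The fit was tested on simulated data. It called 31.6% of genes changed by 1 on the log2 scale and 87.6% of those changed by 2. The lack of a call therefore does not show that a gene is unchanged.

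Members, role groups and lists were chosen with earlier results of these data known. Values in every library are given by a rule: per role group the members of lowest p, highest mean CPM and lowest log2 fold change; in the wider list called genes and the 3 lowest p in each direction; in the S phase list called genes. Markers, and genes said to be chosen after their values were seen, fall outside it. A listed marker is not reported here.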

Additional observations from a re-analysis of the deposited data

How the results depend on the processing

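No mitosis member was called by edgeR with DESeq2 size factors, TMM without crystallin genes, no filter, the filter of 5 CPM in 3 libraries or a replicate block; 1 was called with the crystallin share as a covariate, 1 by DESeq2 and 2 by limma voom. Called genes over the whole table numbered 272 in the main setting, 122 with the replicate block, 798 with the crystallin covariate, 821 by DESeq2 and 808 by limma voom. Called genes of the wider list numbered 1 in the main setting, 3 with the covariate, 4 by DESeq2 and 4 by limma voom. Called S phase genes numbered 1 in the main setting, 2 without a filter, 0 with the replicate block, 6 with the covariate, 9 by DESeq2 and 8 by limma voom. With the covariate, the log2 fold changes of Ncapd2, Cdc25c and Bub1b turned to -0.43, -0.40 and -0.12; the cause was not tested.

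Over the 6 fits that left out a library, called genes numbered between 91 and 479, with between 12522 and 12682 genes tested. Called wider genes numbered between 1 and 2 and called S phase genes between 0 and 4. Members with groups apart numbered between 2 and 29, where between 28.7% and 41.8% of all genes were apart in either direction. The members' median log2 fold change lay between 0.38 and 1.01. Ncapd2 lay between -0.24 and 0.77, Cdc25c between -0.22 and 0.57 and Cenpf between -0.047 and 0.92. Whether the replicate numbers pair the libraries is not in the labels. Deviations of libraries 1, 2 and 3 from their group means correlated across genes at -0.28, -0.15 and 0.22 between the groups. The numbers were not each library's best match. Deviations within a group of 3 sum to 0 and may follow tissue content, so these correlations cannot decide whether libraries were paired. With the replicate block the members' median was 0.74 and no member was called (lowest adjusted p 0.241). The lowest count of a member in a library was 43, and the median SE was 0.43 for the members against 0.23 for all genes.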
